A study of Mus musculus with 72 samples.

Results

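The 24 h peak time of transcripts in the suprachiasmatic nucleus (SCN) was compared between mice fed a diet free of methionine and choline (MCD) and mice fed its isocaloric control diet. A gene entered the comparison when its mean level was at least 5 CPM (counts scaled to the library total) and its fitted 24 h range was at least 0.5 log2 units on both diets. The range is the distance from the trough to the peak of a cosine curve with a period of 24 h, fitted to the log2 CPM values of 1 diet. The genes were thus chosen by their fitted ranges and level, not by their peak times. Of the 15759 genes in the SCN count table, 12437 reached 5 CPM and 1333 met the whole rule. All 1333 genes stayed in the table of the tests, because its filter on low counts removed no gene.

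The study collected liver and SCN from C57BL/6J mice (given as c57bl/6 in the sample labels) aged 8 to 12 weeks at purchase. All mice ate their diet freely for 11 days, the first 10 days under a light-dark cycle and day 11 in constant darkness, with water always available. On day 11 mice were killed every 4 h from circadian time (CT) 0 to CT20, and the SCN was cut from frozen brain sections with a laser. Each of the 12 groups of diet and time held 2 males and 1 female, 1 library per mouse, so 18 SCN libraries stood for each diet. The labels give diet as the only difference between control and MCD groups and name no mutation or transgene. The growth protocol speaks of male mice alone, whereas the sample labels and the design text list females, and the labels were followed.

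Total counts lay between 23.3 M and 79.8 M per library on control and between 25.3 M and 79.8 M on MCD, with medians of 57.4 M and 56.0 M. The defining SCN transcripts were present in the libraries: Vip had a median of 1045 CPM, Avp 465 CPM, Zfhx3 86.3 CPM and Lhx1 111 CPM. Prok2, which was at 0 in 1 library, was the only one of the 8 SCN markers with such a library. In bulk tissue, fewer cells of a type and less RNA per cell cannot be told apart. The mice were sampled over 1 day, so an earlier phase and a shorter period cannot be told apart either.

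The SCN is the hypothalamic pacemaker that sets the time of other tissues, and it is reset by light from the retina. In its neurons the activators BMAL1 (encoded by Arntl), CLOCK and NPAS2 bind E-box sequences and switch on the Per and Cry genes, whose proteins then repress the activators. REV-ERB proteins (Nr1d1, Nr1d2) and ROR proteins act on Arntl and Nfil3 through ROR elements, and the PAR bZIP factors (Dbp, Tef, Hlf) and NFIL3 compete at D-boxes. Methionine is the source of the methyl donor S-adenosylmethionine, and choline feeds the same cycle through betaine.

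Promoter sequences are given for 6 genes, 5 of these loops and their outputs and the immediate-early gene Dusp1, because each holds a motif named above and each had a fitted peak that lay earlier on MCD. The windows come from RefSeq on build GRCm38.p6 and run from 250 bases before the annotated start up to the start, written 5′ to 3′ on the gene's own strand. Capitals mark exact matches on either strand to CACGTG (E-box), TTANGTAA (D-box), TAGGTCA (ROR element core) or TGACGTCA (cAMP response element, CRE). The Per1 window, the upstream one of 2 annotated starts, lay at chr11:69098699-69098948, plus strand, Ciart at chr3:95882229-95882478, minus strand, and Prok2 at chr6:99726393-99726642, minus strand. Per3 lay at chr4:151044666-151044915, minus strand, Nfil3 at chr13:52981040-52981289, minus strand, and Dusp1 at chr17:26508473-26508722, minus strand. Ciart held 3 E-boxes, Per1 and Prok2 held 1 E-box each, Per3 held 2 D-boxes, Nfil3 held 1 ROR element core, and Dusp1 held 1 CRE and 1 E-box. The windows of Arntl, Npas2, Rora, Dbp, Nr1d1 and Nr1d2, which were also fitted earlier, held none of these motifs, nor did the downstream Per1 window. A tie between motif and peak time was not tested.
Per1: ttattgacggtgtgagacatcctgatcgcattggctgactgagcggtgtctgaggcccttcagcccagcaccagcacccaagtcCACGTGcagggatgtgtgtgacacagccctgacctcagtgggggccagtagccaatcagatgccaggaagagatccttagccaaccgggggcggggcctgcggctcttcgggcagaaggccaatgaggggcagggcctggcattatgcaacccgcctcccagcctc
Ciart: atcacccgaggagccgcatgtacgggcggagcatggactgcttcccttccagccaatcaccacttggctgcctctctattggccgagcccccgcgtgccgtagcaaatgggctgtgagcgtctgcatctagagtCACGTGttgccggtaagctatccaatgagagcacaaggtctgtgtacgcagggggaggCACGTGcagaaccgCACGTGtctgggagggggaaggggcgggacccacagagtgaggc
Prok2: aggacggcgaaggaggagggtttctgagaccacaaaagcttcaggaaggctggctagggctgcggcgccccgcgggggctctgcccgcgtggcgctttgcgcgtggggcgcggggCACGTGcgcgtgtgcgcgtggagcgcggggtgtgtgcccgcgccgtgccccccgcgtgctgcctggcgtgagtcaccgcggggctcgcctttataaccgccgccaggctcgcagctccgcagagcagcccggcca
Per3: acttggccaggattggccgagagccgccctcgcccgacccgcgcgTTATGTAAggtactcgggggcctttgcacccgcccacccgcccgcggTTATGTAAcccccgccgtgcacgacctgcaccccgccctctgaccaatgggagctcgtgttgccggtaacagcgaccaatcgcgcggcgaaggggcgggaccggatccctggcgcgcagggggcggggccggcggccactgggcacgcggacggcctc
Nfil3: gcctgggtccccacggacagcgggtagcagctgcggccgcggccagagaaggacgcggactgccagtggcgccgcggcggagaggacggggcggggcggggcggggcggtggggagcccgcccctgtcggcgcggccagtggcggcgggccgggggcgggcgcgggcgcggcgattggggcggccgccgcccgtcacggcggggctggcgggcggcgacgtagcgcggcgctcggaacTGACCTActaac
Dusp1: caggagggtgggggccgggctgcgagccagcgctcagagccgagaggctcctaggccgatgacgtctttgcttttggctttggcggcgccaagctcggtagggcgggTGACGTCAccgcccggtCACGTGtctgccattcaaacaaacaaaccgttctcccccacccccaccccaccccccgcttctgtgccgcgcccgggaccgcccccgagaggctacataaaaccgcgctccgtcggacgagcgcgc

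The fitted peaks of the rhythmic SCN genes lay mostly earlier on MCD than on control. Over the 1333 genes the median difference was -0.89 h (MCD minus control, so a negative value is earlier on MCD), with a jackknife standard error of 0.348 h over the 36 libraries. The difference was negative for 1023 genes and positive for 310, and the middle 50% of genes lay between -1.86 and -0.09 h. Over all 15759 genes the median was -0.85 h and 62.2% of genes were earlier, so the median of the chosen genes was close to that of the whole table. The chosen genes were spread less: 552 of the 1333 lay within 1 h of no difference and 59 differed by more than 6 h.

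**Figure D1:**
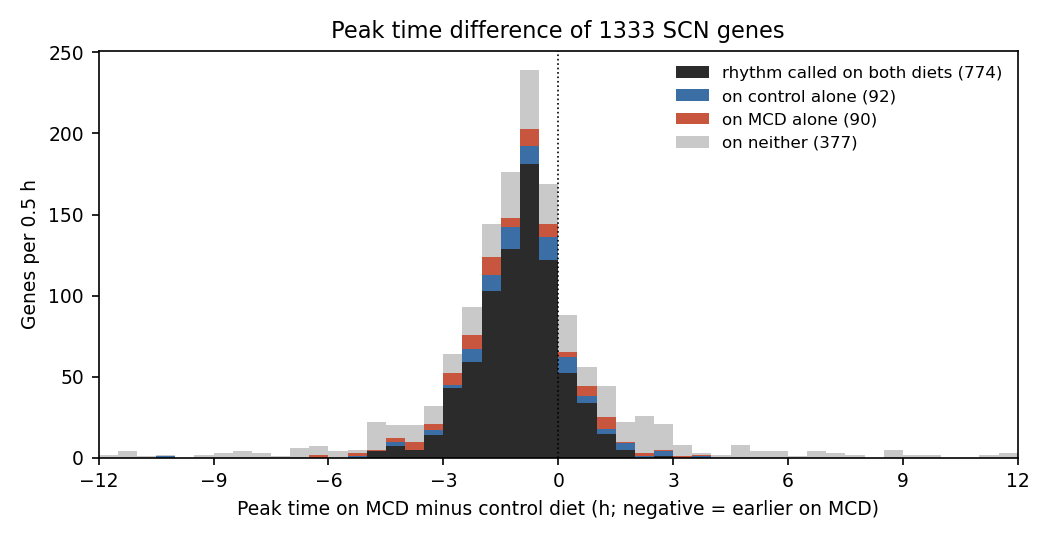
Number of genes per 0.5 h of the difference in fitted peak time (MCD minus control), stacked by the diets on which the 24 h rhythm was called by edgeR. The 774 genes called on both diets form a peak with a median of -0.93 h, and the 377 called on neither diet spread over the whole axis.

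The calls of the 24 h rhythm on each diet sorted the genes by how well their peak time was known. By edgeR's quasi-likelihood test, at a Benjamini-Hochberg adjusted p under 0.05, 2378 of all genes (15.1%) were rhythmic on control, 2544 (16.1%) on MCD and 1556 (9.87%) on both diets. Of the 1333 genes, 774 were called on both diets, 92 on control alone, 90 on MCD alone and 377 on neither. The range chose the 1333 genes and bears on these calls, so the shares of called genes are a description. In the 774 genes the median difference was -0.93 h with a jackknife standard error of 0.295 h, and 667 genes (86.2%) were earlier. In males alone 85.8% of the 774 were earlier, with a median of -1.20 h, and in females alone, with 1 library per group, 67.2% were, with a median of -0.71 h. Among the 377 genes called on neither diet the median was -0.58 h and 58.9% were earlier, with a median standard error of 2.41 h per gene. The 782 genes called on both diets whose range or level fell short of the rule had a median of -1.05 h, and 81.8% of them were earlier.

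The 774 genes were read from the same 36 libraries, so their errors are shared, and their spread is given as a description that does not show whether they moved by a common amount. The standard deviation of their differences was 1.09 h and the median standard error of a gene's difference was 1.01 h. More than 2 of their standard errors from the median of -0.93 h lay 40 of the 774 genes. From 0, 171 genes lay more than 2 standard errors on the earlier side and 1 gene on the later side. The 37 genes with a control range of at least 2 log2 units had the smallest errors, with a median of 0.511 h, and 36 of them were earlier, with a median of -0.95 h.

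The median difference was negative in each 6 h window of the day. The fitted control peaks fell into 2 groups: 118 of the 774 genes peaked from CT6 to CT8 and 125 from CT18 to CT20, against 25 from CT2 to CT4 and 26 from CT12 to CT14. On MCD, 83 genes peaked from CT4 to CT6, where control had 48, and 85 from CT16 to CT18, where control had 62. By control peak, the median difference was -1.10 h for 105 genes from CT0 to CT6 and -0.96 h for 266 genes from CT6 to CT12. It was -1.11 h for 114 genes from CT12 to CT18 and -0.82 h for 289 genes from CT18 to CT24. The windows were not tested against each other.

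No single gene passed the test of its peak time. The test was a moderated test in limma of the part of the rhythm difference that lies at right angles to the mean rhythm. A change in range alone does not enter that part, but for a given shift in hours the part grows with the range. At an adjusted p under 0.05 it called 0 of 15759 genes (0%), and limma with precision weights (voom) also called 0. At an unadjusted p under 0.05 it took in 771 genes (4.89%) of the table, of which 636 (4.04%) were earlier on MCD and 135 (0.857%) later. Among the 1333 genes 220 (16.5%) were earlier at that level and 18 (1.35%) later. Among the 774 called on both diets 191 (24.7%) were earlier and 3 (0.388%) later. The range chose these genes and bears on the size of what is tested, so nothing is read from their shares against those of the table. The same holds for the counts at that level in the gene lists below. The 10 genes of smallest p were Tsc22d3, Dnajb1, Rasl11b, Tmem86a, Fabp7, Per1, Mmp14, Txnip, Tob2 and Rnf145, with adjusted p from 0.148 to 0.324 by limma. All 10 were earlier on MCD, and all except Tob2, whose control range was 0.43 log2, met the rule of range.

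The rhythm difference in peak time and range together was called by edgeR's quasi-likelihood test at an adjusted p under 0.05 in 2 genes (0.0127% of the table). One was Tsc22d3, which met the rule and whose call was lost without any 1 of 24 libraries, and the other was Mat2a, which did not, since its range on control was 0.25 log2. At an unadjusted p under 0.05 the test took in 596 genes (3.78%), and 151 (11.3%) of the 1333. The range enters this test and also chose the genes, so nothing is read from that share. DESeq2 called 8 genes, which were Tsc22d3, Mat2a, Per1, Dnajb1, Tmem86a, Fabp7, Mmp14 and Txnip.

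The core clock repressors had earlier fitted peaks on MCD without exception, although none passed the corrected test. Of 10 listed repressors 9 met the rule, all 9 were called on both diets, all were earlier by 0.46 to 1.42 h, and 7 had an unadjusted p under 0.05 (4.04% of the table on the earlier side). Cry2 did not meet the rule.
Per1, whose protein represses BMAL1 and CLOCK and whose transcription responds to light, had the largest difference of the repressors. On control its levels in CPM (male, male and female in that order) were 49.3/43.2/47.6 at CT0, 146/115/123 at CT4, 175/117/117 at CT8, 72.5/74.0/45.0 at CT12, 28.8/32.9/28.8 at CT16, and 28.3/27.8/37.7 at CT20. On MCD they were 87.4/69.0/101 at CT0, 166/147/125 at CT4, 132/116/125 at CT8, 57.2/60.4/47.4 at CT12, 33.1/27.7/31.3 at CT16, and 36.8/37.9/38.0 at CT20. At CT0 all 3 MCD libraries were above all 3 control libraries (85.7 ± 15.9 against 46.7 ± 3.19 CPM, mean ± SD, n = 3), and at the other times the groups overlapped. The share of all genes whose groups separate at a given time was not counted, so such separations, here and below, are a description. The fitted peak of Per1 went from CT6.45 to CT5.03, a difference of -1.42 ± 0.33 h (± SE), with adjusted p = 0.184 by limma. Its ranges, 2.44 ± 0.18 and 2.37 ± 0.11 log2 on control and MCD, were alike within their errors.

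**Figure D2:**
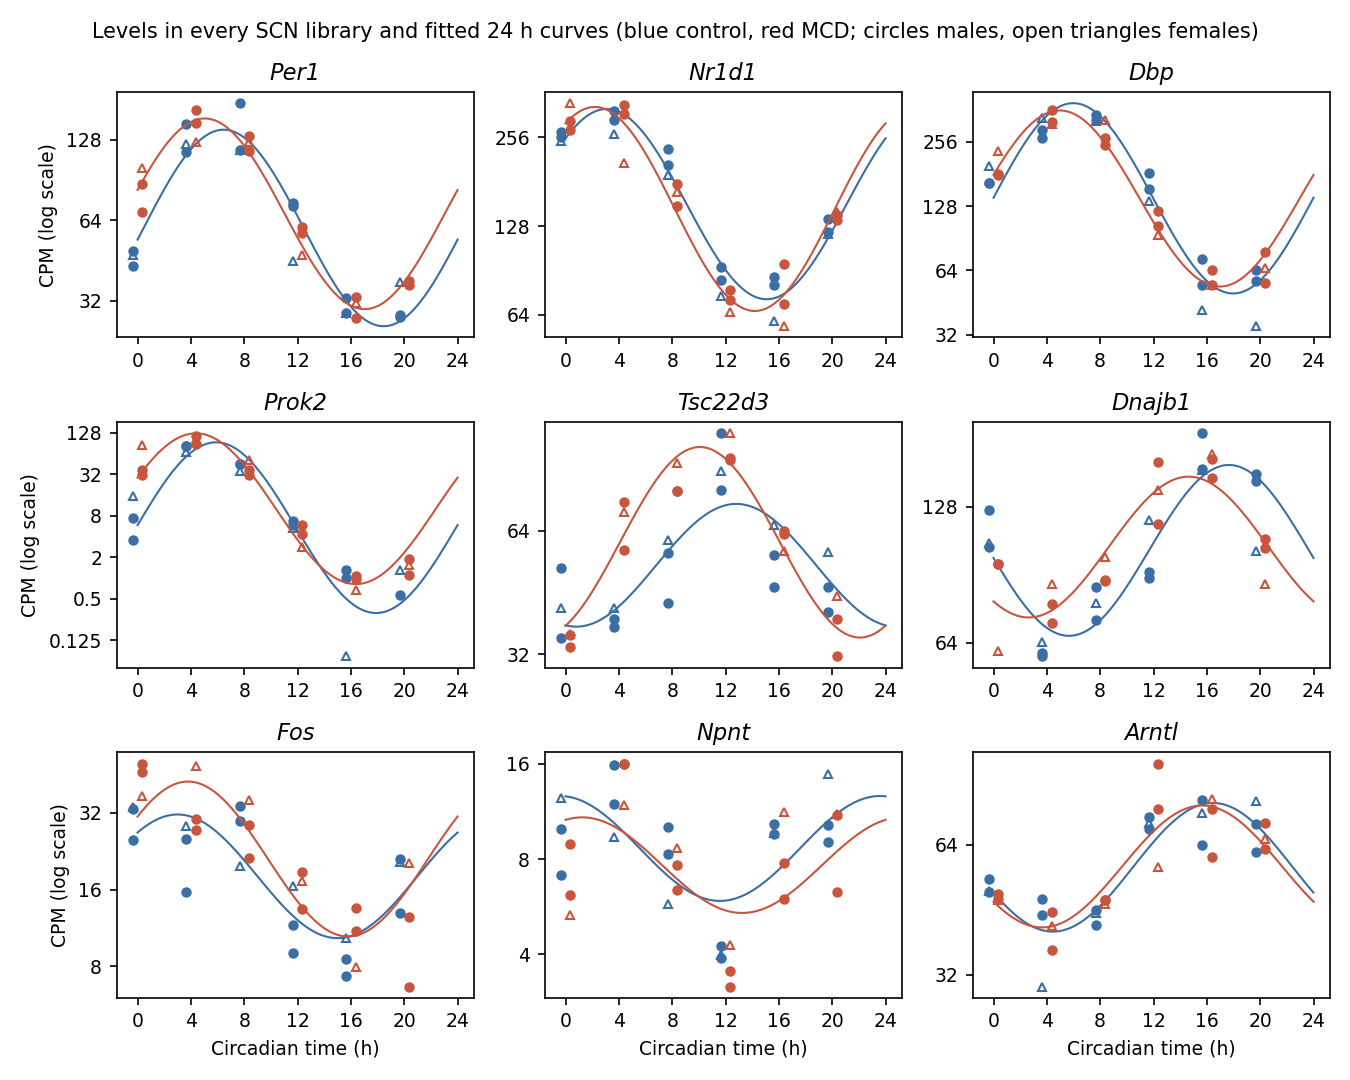
CPM on a log axis against circadian time for 9 genes in every SCN library, with control in blue, MCD in red, males as filled circles and females as open triangles; lines are the fitted 24 h curves. For Per1, Prok2, Tsc22d3 and Dnajb1 the MCD curve runs ahead of the control curve, while Fos and Npnt are fitted later on MCD and Arntl differs by about 1 standard error.

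Per2 and Per3, the other period genes, had differences of -0.67 ± 0.38 h and -0.90 ± 0.48 h. Cry1, which encodes the strongest of the repressors and peaks last among them, went from CT11.12 to CT9.86, a difference of -1.26 ± 0.43 h. Its 3 MCD libraries were above the 3 control libraries at CT0 (41.8 ± 3.24 against 35.1 ± 2.09 CPM) and at CT4 (62.1 ± 1.29 against 50.3 ± 2.95 CPM). At CT12, the time of its highest control mean, the groups overlapped at 89.5 ± 15.7 and 94.3 ± 7.98 CPM. So the separation of the groups lay on the rising side of the curve for both Per1 and Cry1.

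Nr1d1, which encodes the heme receptor REV-ERB alpha, was separated on both sides of its peak. At CT0 it measured 270.1, 290.1 and 334 CPM on MCD and 266, 257 and 248 on control, and at CT8 it measured 178, 150.1 and 167 on MCD and 234, 206 and 191 on control. MCD was thus higher before the peak and lower after it, with no overlap at either time. Its peak went from CT3.08 to CT2.20, a difference of -0.89 ± 0.29 h (adjusted p = 0.625 by limma). Nr1d2, which encodes REV-ERB beta, differed by -0.74 ± 0.28 h. The E-box repressors Bhlhe40 and Bhlhe41 differed by -1.16 ± 0.76 h and -1.14 ± 0.44 h, and Ciart, which encodes the repressor CHRONO, by -0.46 ± 0.48 h. Ciart, with 3 E-boxes in its window, had the smallest difference of the repressors, within 1 standard error of 0. Nr1d1 and Thra overlap on opposite strands, and the counting was not stated to use strand, so reads of the pair cannot be told apart. In the GENCODE annotation of GRCm38 the same limit holds, with a partner on the opposite strand, for Arntl, Npas2, Rora, Bhlhe40, Bhlhe41, Ciart, Dbp, Tef, Prok2, Vipr2, Avpr1a, Rgs16, Gpr176, Hopx, Junb, Dusp1, Rbm3, Hspa1a, Cdkn1a, Mt2, Txnip, Mad2l2, Tmem163, Tob2, Slc7a11, Fdft1, Glul, Tagln and, among genes fitted later or at the edges of the rule, Mrtfa, Npnt, Fzd5, Hlcs, Pdgfd, Kcnh7, Cables1, Gemin4, Gm49394, Ccsap and Eps8l1. Per3, Npas2, Gpr176, Dusp1, Hspa8, Bag3, Klf9, Odc1, Sesn2, Slc7a11, Glul, Mrtfa, Hlcs, Kcnh7, Prr18 and Cables1 overlap another annotated gene on their own strand, so their counts are uncertain.

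The clock activators were also earlier, by less than 2 standard errors each. Arntl, Npas2, Rora and Rorb met the rule and Clock did not. Of the listed activators that met it, 0 had an unadjusted p under 0.05, where 4.04% of all genes were earlier at that level. Arntl went from CT16.45 to CT15.65, a difference of -0.81 ± 0.76 h, with ranges of 0.99 ± 0.13 and 0.94 ± 0.14 log2. Its highest level was 98.8 CPM in 1 male on MCD at CT12, when the female of the same group had 56.8 CPM. MCD was below control at CT0 (48.3 ± 0.878 against 51.1 ± 1.99 CPM) and above it at CT8 (47.3 ± 0.604 against 43.8 ± 1.89 CPM) without overlap, and the diets overlapped at the other times. Npas2, the partner of BMAL1 that can stand in for CLOCK, differed by -0.79 ± 0.53 h. The ROR genes Rora and Rorb differed by -0.86 ± 0.57 h and -0.56 ± 0.72 h.

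The PAR bZIP genes, which carry clock time to output genes through D-boxes, were earlier in 4 of 4 cases with Nfil3 included. Dbp, itself a target of E-boxes, measured, in CPM on control (male, male and female at each time), 165/164/197 at CT0, 266/292/329.6 at CT4, 323/342/319.6 at CT8, 154/183/135 at CT12, 54.4/72.5/41.5 at CT16, and 64.1/57.0/35.0 at CT20. On MCD its levels in CPM were 179/181/231 at CT0, 316/360.1/310.1 at CT4, 267/248/323 at CT8, 104/122/93.8 at CT12, 64.5/54.5/54.7 at CT16, and 55.9/78.1/65.9 at CT20. The groups separated at CT12, where MCD was lower, and overlapped at the other times. The fitted peak of Dbp went from CT5.98 to CT4.96, a difference of -1.02 ± 0.33 h (adjusted p = 0.542 by limma). Hlf differed by -1.16 ± 0.57 h, Tef by -0.72 ± 0.43 h and Nfil3, which represses D-box genes in the opposite phase, by -0.51 ± 0.60 h. Of 10 listed genes of clock protein turnover, only Fbxl21, an F-box protein gene that acts on cryptochromes, met the rule. It differed by -0.53 ± 0.51 h.

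**Figure D3:**
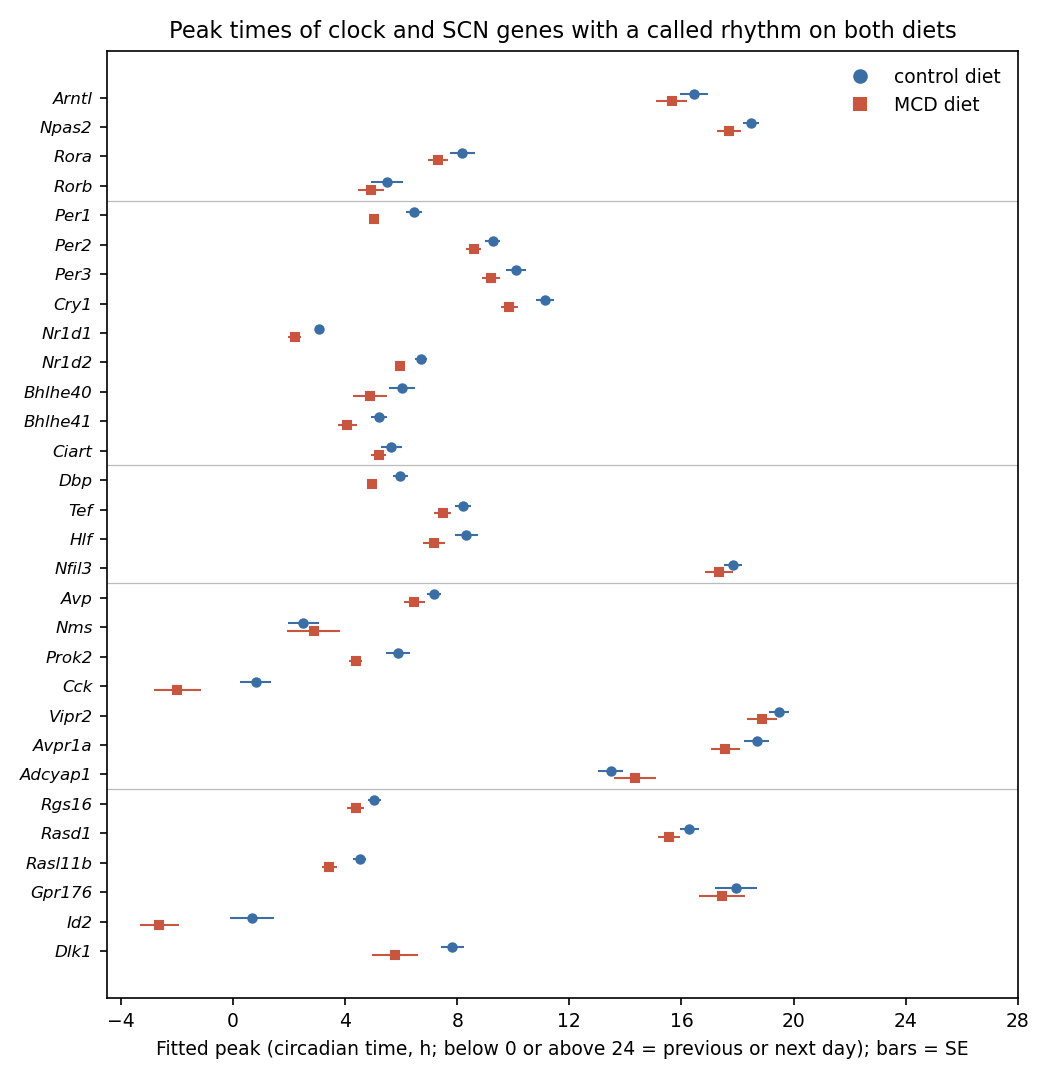
Fitted peak in circadian time on control (circles) and MCD (squares) for the genes of the clock and SCN lists that were called rhythmic on both diets, with bars of 1 standard error; grey lines part the lists. Nearly all MCD points lie left of the control points, with Nms and Adcyap1 as the exceptions.

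Over the 3 clock lists, 17 genes that met the rule were called on both diets, and each of the 17 was earlier. The median of the 17 was -0.86 h with a jackknife standard error of 0.255 h, and it lay between -0.97 and -0.77 h when any 1 library was left out. The whole table's median was -0.85 h. In males alone all 17 were earlier, with a median of -1.17 h, and in females alone, with 1 library per group, 12 of 17 were earlier, with a median of -0.66 h. In females Nr1d2, Tef, Rorb, Arntl and Nfil3 were later. The fitted difference of Nfil3 was 0.00 h without 1 male on MCD at CT12. The sexes were not tested against each other.

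The same 17 genes gave a clock time for every library, a measure added after the data had been seen. Curves were fitted to the other 35 libraries, both diets together, and the time between 0 and 24 h (in steps of 0.05 h) at which the 17 genes best matched the library was compared with its label. Control libraries read -0.517 ± 0.703 h from their label (mean ± SD, n = 18), with a range from -1.65 to 1.00 h, 14 behind and 4 ahead. MCD libraries read 0.494 ± 0.550 h (n = 18), from -0.85 to 1.15 h, 14 ahead, 3 behind and 1 at 0. The means differed by 1.01 h, by 1.30 h in males and by 0.425 h in females. MCD was ahead at 6 of 6 times, by 1.53 h at CT0, 0.233 h at CT4, 1.43 h at CT8, 0.983 h at CT12, 1.02 h at CT16 and 0.867 h at CT20.
The diets overlapped, since 11 control libraries read ahead of the lowest MCD library, and 1 control library read ahead of the MCD median. Because these genes were chosen with their differences known, no p is given for this reading. Read from all 774 genes, the difference in means was 1.24 h.

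**Figure D4:**
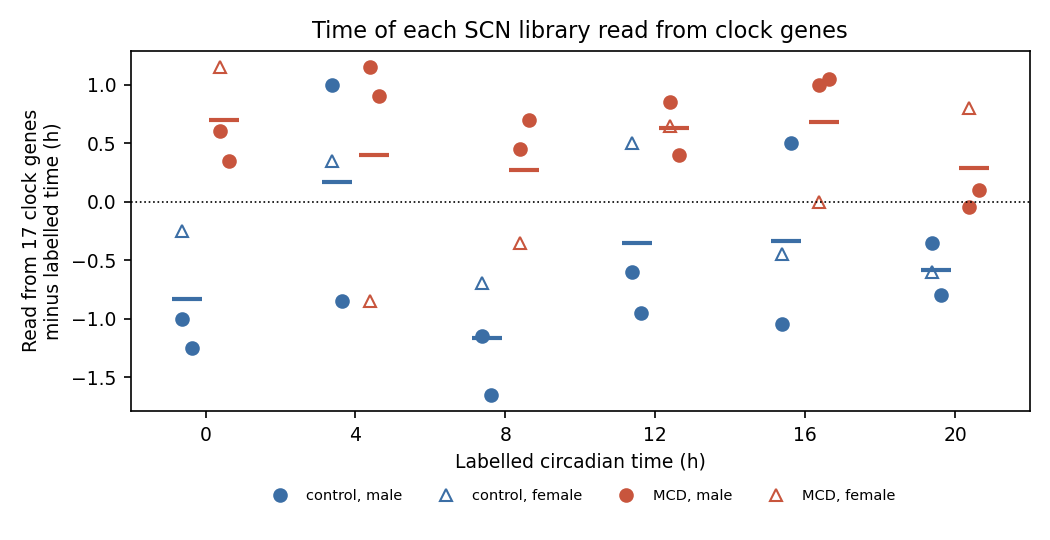
Time read from 17 clock genes minus the labelled circadian time (h) for the 36 SCN libraries, by labelled time, with control in blue, MCD in red, filled circles for males, open triangles for females and bars for the mean of each group of 3. The MCD mean lies above the control mean at 6 of 6 times, by the least at CT4.

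The differences of SCN neuropeptides and their receptors lay between -2.79 and 1.25 h. Of 21 listed genes 19 were measured, 9 met the rule, 7 were called on both diets, 6 were earlier and 3 later, and 3 of the earlier ones had an unadjusted p under 0.05 (4.04% of the table). The share of 6 in 9 that were earlier was near the 62.2% of all genes. Vip, which marks the light-receiving part of the SCN, did not meet the rule.
Prok2, the secreted output signal prokineticin 2, had the widest fitted range on control of the 1333 genes. Its levels in CPM on control were 7.37/3.59/15.3 at CT0, 83.4/83.2/68.1 at CT4, 45.7/45.4/35.8 at CT8, 5.95/6.84/5.27 at CT12, 1.31/0.985/0.0724 at CT16, and 0/0.569/1.31 at CT20. Its MCD levels were 36.6/31.2/85.7 at CT0, 89.3/116/104 at CT4, 31.1/36.6/52.6 at CT8, 5.83/4.35/2.81 at CT12, 1.09/0.975/0.669 at CT16, and 1.10/1.91/1.53 at CT20. MCD was above control without overlap at CT0 and CT4, and the groups overlapped at the other times. The fitted peak went from CT5.89 to CT4.37, a difference of -1.51 ± 0.49 h (adjusted p = 0.796 by limma), with ranges of 8.24 ± 0.94 and 7.28 ± 0.43 log2. The trough of Prok2 rests on levels near or at 0.

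Avp, the vasopressin gene and an E-box target, differed by -0.69 ± 0.44 h, with ranges of 2.50 ± 0.16 and 2.48 ± 0.24 log2. MCD was below control without overlap at CT12 alone, at 473 ± 108 against 689 ± 112 CPM. Cck, the cholecystokinin gene, had the largest earlier difference of the neuropeptides, -2.79 ± 1.00 h (adjusted p = 0.888 by limma). Its MCD libraries were below control at CT4, CT8 and CT12 without overlap, for example 66.1 ± 10.5 against 98.0 ± 12.4 CPM at CT8. The receptors Avpr1a and Vipr2, which pass vasopressin and VIP signals between SCN neurons, differed by -1.12 ± 0.68 h and -0.60 ± 0.64 h. The 3 peptide genes fitted later differed from 0 by about 1 standard error or less: Nms by 0.36 ± 1.07 h, Adcyap1 by 0.86 ± 0.86 h and Sst by 1.25 ± 2.05 h. Grpr, at 6.50 CPM and rhythmic on neither diet, differed by -2.60 ± 3.38 h.

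Genes of SCN identity and signalling were earlier in 8 of 8 cases, and 4 of the 8 had an unadjusted p under 0.05. Of all 15759 genes, 62.2% were earlier and 4.04% were earlier at that level. Rasl11b, a small Ras-like GTPase gene, had an adjusted p of 0.148 by limma and a difference of -1.09 ± 0.35 h. It measured 166, 180.3 and 247 CPM on MCD and 98.9, 82.3 and 137 on control at CT0, and 24.9, 26.0 and 36.4 on MCD and 18.4, 23.0 and 13.5 on control at CT20. MCD was higher at both times without overlap, on the rising side of a curve that peaked near CT4. Rgs16, a regulator of G protein signalling that is enriched in the SCN, differed by -0.67 ± 0.39 h, and Rasd1 by -0.73 ± 0.52 h. Id2, an inhibitor of E-box factors, differed by -3.32 ± 1.04 h, and Dlk1 by -2.04 ± 0.91 h. Id2 was below control at CT4 (90.2 ± 22.0 against 122 ± 2.66 CPM) and above it at CT16 (97.8 ± 5.19 against 80.6 ± 5.87 CPM), both without overlap. Gpr176, an orphan receptor gene, Syt10 and Hopx differed by -0.50 ± 1.11 h, -1.45 ± 2.41 h and -0.55 ± 1.57 h.

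Immediate-early genes answer neuronal activity and light within minutes. Of 14 listed genes 12 were measured and 7 met the rule, with 5 earlier and 2 later, where 62.2% of all genes were earlier. Of the earlier ones 4 had an unadjusted p under 0.05 by limma (4.04% of the table), and of the later ones 0 (0.857%). Fosl2, Junb and Dusp1 were earlier by similar amounts, -1.66 ± 0.65 h, -1.53 ± 0.56 h and -1.62 ± 0.52 h. Fos itself was fitted later, by 0.79 ± 0.98 h, and Nr4a1 differed by -0.30 ± 1.01 h. At CT0 Fos measured 50.0, 46.2 and 37.3 CPM on MCD and 33.0, 25.1 and 33.7 on control, with no overlap. Npas4 and Egr1, called rhythmic on MCD alone and on neither diet, differed by -6.43 ± 2.96 h and 1.34 ± 2.50 h. The brain was dissected under room light after the eyes had been removed under dim red light, and its part in the levels of these genes was not tested.

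Heat shock and cold-inducible genes had larger earlier differences than the clock genes by value. Of 16 listed genes 10 met the rule, 9 were earlier and 7 of them had an unadjusted p under 0.05 (4.04% of the table), and the median of the 8 called on both diets was -1.93 h. The difference from the clock genes was not tested.
Dnajb1, a co-chaperone of HSP70, had control levels in CPM of 104/126/106 at CT0, 60.8/59.6/64.3 at CT4, 71.7/84.7/78.2 at CT8, 88.9/91.8/119.8 at CT12, 186/155/155 at CT16, and 146/151/102 at CT20. Its MCD levels were 95.4/95.5/61.4 at CT0, 70.6/78.0/86.2 at CT4, 87.7/88.0/98.8 at CT8, 160.3/117/139 at CT12, 163/148/167 at CT16, and 109/103/86.2 at CT20. MCD was lower at CT0 and higher at CT4 and CT8 without overlap. Its peak went from CT17.66 to CT14.64, a difference of -3.03 ± 0.72 h (adjusted p = 0.148 by limma). Hsph1, Hspa8 and Hsp90aa1, chaperone genes that peak at night with body temperature in mice, differed by -1.62 ± 0.69 h, -1.84 ± 0.91 h and -2.03 ± 0.81 h. The near-identical genes Hspa1a and Hspa1b, whose reads the counting could split, differed by -0.92 ± 1.38 h and -0.62 ± 1.08 h.

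The cold-inducible genes peak at another time of day than the chaperones, and they too were fitted earlier. Rbm3, an RNA binding protein gene induced by mild cold, went from CT9.31 to CT6.26, a difference of -3.05 ± 0.83 h. It measured 81.2, 64.3 and 105 CPM on MCD and 49.1, 50.4 and 46.8 on control at CT4, and at CT0 43.2, 42.5 and 77.8 and 23.0, 25.1 and 31.3. MCD was higher at both times without overlap. Cirbp, its relative, differed by -3.59 ± 1.59 h and was called rhythmic on MCD alone. Rbm3-ps, a copy of Rbm3 whose reads the counting could share with it, differed by -4.25 ± 1.06 h. Bag3 alone of the 10 was later, by 2.12 ± 1.74 h.

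Genes known to respond to glucocorticoids were earlier in 7 of 7 cases, with a median of -2.04 h over the 5 called on both diets and 2 with an unadjusted p under 0.05 (4.04% of the table, where 62.2% were earlier). Tsc22d3, which encodes the glucocorticoid-induced leucine zipper, had control levels in CPM of 35.0/52.0/41.6 at CT0, 37.2/38.9/41.5 at CT4, 42.7/56.4/60.6 at CT8, 110.3/80.5/89.6 at CT12, 46.7/55.8/65.9 at CT16, and 46.6/40.5/56.9 at CT20. Its MCD levels were 35.8/33.4/35.9 at CT0, 75.0/57.4/71.0 at CT4, 79.9/79.8/93.5 at CT8, 96.3/95.1/110.4 at CT12, 63.8/62.9/57.2 at CT16, and 39.0/31.6/44.3 at CT20. MCD was above control at CT4 and CT8 without overlap, and the groups overlapped at the other times, with the highest means at CT12 on both diets. Its peak went from CT12.80 to CT10.08, a difference of -2.72 ± 0.82 h, with ranges of 0.99 ± 0.20 and 1.54 ± 0.12 log2, and edgeR's adjusted p for the rhythm difference was 0.0377. That call was lost, with adjusted p from 0.0516 to 0.184 by edgeR, when any 1 of 24 libraries was left out. It was kept without any 1 of the other 12 libraries, with adjusted p from 0.00691 to 0.0499. The 12 were the 3 control libraries at CT0, control CT8 b, control CT12 1 and 3, control CT16 1, control CT20 2, and MCD CT0 1, CT4 2, CT16 1 and CT20 1. In the 24 male libraries alone its adjusted p was 0.55 by edgeR.
Mt2, a metallothionein gene, differed by -2.06 ± 0.90 h, and the cell cycle inhibitor Cdkn1a by -2.04 ± 0.96 h. Klf9 and Sgk1 differed by -0.76 ± 1.04 h and -1.37 ± 1.53 h.

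Of 19 listed genes of the methionine cycle and one-carbon metabolism, which the diet itself feeds, 18 were measured and 1 met the rule, against 1333 of all 15759 genes. Odc1, which encodes the first enzyme of polyamine synthesis, was that gene. It went from CT6.23 to CT4.97, a difference of -1.27 ± 0.41 h (adjusted p = 0.625 by limma), and MCD was lower at CT12 without overlap (126 ± 14.7 against 161 ± 16.2 CPM). Of 12 listed endoplasmic reticulum chaperone genes 5 met the rule and were earlier, with a median of -1.13 h and 0 with an unadjusted p under 0.05 (4.04% of all genes were earlier at that level, and 62.2% at any). Hspa5, the main chaperone of that compartment, differed by -1.13 ± 0.93 h. Of 12 amino acid stress genes Sesn2 and Slc7a11 met the rule, with differences of -0.04 ± 0.66 h and 1.11 ± 1.74 h. Among cholesterol synthesis genes Fdft1, the squalene synthase, differed by -0.71 ± 0.86 h.

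Markers of cells other than SCN neurons that met the rule were mostly not called rhythmic on both diets. Glul, the glutamine synthetase gene of astrocytes, was called on both and went from CT16.84 to CT14.53, a difference of -2.32 ± 0.70 h. The summed level of all 8 astrocyte markers lay between 3276 and 5402 CPM on control and between 3612 and 5511 CPM on MCD. That sum peaked at CT16.54 on control and CT13.69 on MCD, a difference of -2.85 ± 1.21 h, with ranges of 0.30 and 0.28 log2. Glul is itself in that sum, with a mean of 1342 CPM. The part of astrocyte content in the result for Glul was not tested. The 3 ependymal genes that met the rule were fitted later, with a median of 2.85 h, and 0 were called on both diets. The summed ependymal and choroid markers, these 3 included, lay between 165 and 325 CPM on control and between 139 and 333 CPM on MCD, and the sum peaked later by 2.51 ± 1.93 h.
Of the vessel markers, Cldn5 differed by -1.08 ± 0.93 h, while Tagln, Myl9 and Acta2 of smooth muscle were later by 2.70, 2.04 and 0.04 h, each within 2 standard errors. The 4 globin genes differed by -0.75 to -0.51 h with standard errors near 2 h, and their list summed to between 76.6 and 1518 CPM on control and between 43.6 and 395 CPM on MCD. Opalin alone of 10 oligodendrocyte genes met the rule, at 0.51 ± 2.09 h, as did Oxt and Tac2 of 14 genes of the hypothalamus outside the SCN, at 0.56 ± 3.02 h and -4.83 ± 3.49 h. None of the 8 microglial genes met it. The sums of all SCN markers lay between 1723 and 3291 CPM on control and between 1819 and 4287 CPM on MCD.

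The largest earlier differences among the 774 genes were all over 4 h. They belonged to Oma1 (-4.97 ± 1.37 h), Txnip (-4.97 ± 1.16 h), Trib1 (-4.70 ± 1.73 h), 2810032G03Rik (-4.59 ± 1.39 h), Mad2l2 (-4.36 ± 1.30 h), Rbm3-ps, Tmem163 (-4.20 ± 1.30 h) and Tmem86a (-4.15 ± 1.12 h). Most of them had low levels, from 5.58 to 13.0 CPM on average, except Txnip at 32.3 CPM. Txnip, a glucose-responsive inhibitor of thioredoxin, measured 64.4, 47.0 and 45.9 CPM on MCD and 20.2, 24.7 and 25.1 on control at CT4, and 52.0, 46.1 and 53.8 and 24.2, 27.2 and 30.8 at CT8. MCD was higher at both times without overlap, and the highest mean was at CT4 on MCD and at CT12 on control.
The largest later differences were smaller. They belonged to Rbpms2 (2.88 ± 1.24 h), Lypd6 (1.95 ± 1.31 h), Mrtfa (1.70 ± 0.98 h), Npnt (1.67 ± 1.94 h), Xylt2 (1.64 ± 1.16 h), Ugt8a (1.52 ± 1.17 h), Fzd5 (1.41 ± 1.47 h) and Hlcs (1.36 ± 1.18 h). Rbpms2 alone of the 8 lay over 2 standard errors from 0. Npnt measured 3.16, 3.55 and 4.30 CPM on MCD and 4.25, 3.89 and 4.00 on control at CT12, the time of its lowest mean on both diets.

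Among the other genes of small p, Fabp7, a brain fatty acid binding protein gene of astrocytes, differed by -1.78 ± 0.51 h and was below control at CT8 and CT12 without overlap. Mmp14, a membrane metalloproteinase gene, differed by -2.13 ± 0.45 h and was the largest of the 10 relative to its standard error. It was below control at CT4 and CT8 and above it at CT12 and CT20 without overlap. Rnf145, a sterol-linked ubiquitin ligase gene, differed by -1.70 ± 0.49 h.

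The fitted range did not differ in one direction. Its median over the 1333 genes was 0.75 log2 on control and 0.76 log2 on MCD, and the median of the difference was 0.00 log2 with a jackknife standard error of 0.033. The range was larger on MCD in 657 genes and smaller in 676, and the middle 50% of differences lay between -0.14 and 0.12 log2. These ranges chose the genes, so they are given without a test. In the 774 genes called on both diets the median range was 0.77 log2 on control and 0.78 log2 on MCD.

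**Figure D5:**
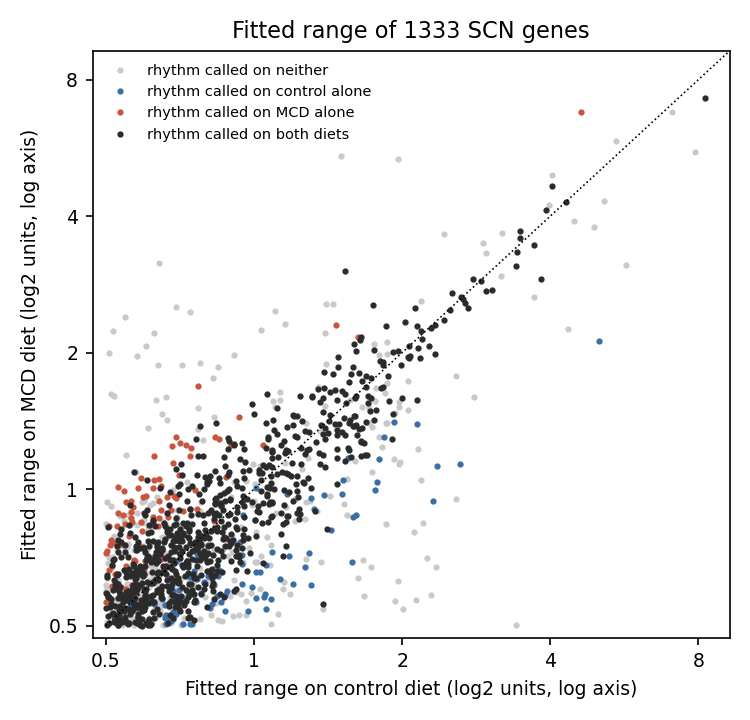
Fitted 24 h range on control against MCD (log2 units, both axes logarithmic) for 1333 genes, coloured by the diets on which the rhythm was called; the dotted line marks equal ranges. Genes called on both diets lie along the line, and the points far from it are mostly genes called on neither diet.

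The largest differences in range came from genes with libraries near 0. The 6 ranges smaller by the most on MCD belonged to Snhg4, a pair of gene IDs named Zc3h11a, Gm28036, Gemin4 and Kcnh5, and the 6 larger by the most to Gm29253, Gm49394, Gm20605, Gm45140, Ccsap and Eps8l1. None of the 12 was called on both diets, and all except 1 of the Zc3h11a IDs had a library at or near 0. Snhg4, both Zc3h11a IDs, Gm28036, Gemin4, Gm29253, Gm49394, Gm20605 and Gm45140 overlap another gene on the same strand, so their counts are uncertain. A level at least 32-fold higher in the highest than in the lowest library was found in 120 of the 1333 genes (9%), in 6 of the 774 called on both diets (0.775%) and in 109 of the 377 called on neither (28.9%).
At the edge of the rule, Lhx1os, Pdgfd and Kcnh7 lay just inside and Prr18, Cables1 and Lingo1 just outside, all with a lower range of 0.50 log2. Just inside, the differences in peak time were -0.54 ± 1.82 h, -2.78 ± 2.00 h and -9.32 ± 3.10 h. Just outside, they were -0.58 ± 1.20 h, -1.79 ± 1.10 h and -0.58 ± 0.93 h.

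Promoter windows of 300 bases (250 before to 50 after the annotated start, both strands searched) were found in RefSeq for 971 of the 1333 genes, or 969 symbols, and for 577 of the 774 called on both diets. An E-box (CACGTG) was in 13.9% of the 577 genes, against 8.09% of all 27025 genes with a window. By the time of the control peak the share was 12.0% of 83 genes from CT0 to CT6, 19.0% of 200 from CT6 to CT12, 11.0% of 91 from CT12 to CT18 and 10.8% of 203 from CT18 to CT24. A CRE (TGACGTCA) was in 5.2% of the 577, against 2.03% of all genes, and in 8.0% of the genes peaking from CT6 to CT12. The D-box (TTANGTAA) was in 1.04% against 2.72%, the ROR element core (TAGGTCA) in 1.91% against 2.97%, and the heat shock element (GAANNTTC) in 7.97% against 9.04%. The background holds genes that are not in the SCN table, and no share over the SCN genes of at least 5 CPM was made. These shares describe letters in a window, and no test was made of them.

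Liver values are set beside those of the SCN without a test, because the 2 tissues came in separate tables. Of the 1333 genes, 1127 were in the liver table and 247 met the same rule there. Their median difference in peak time was -1.65 h in liver and -1.09 h in SCN, with 200 earlier in liver, 201 earlier in SCN and 168 earlier in both. No share over all liver genes is set beside these counts, and the overlap of the tissues was not tested. Of the 17 clock genes 16 were in the liver table and all 16 were earlier there, by 0.41 to 2.65 h, with a median of -1.36 h. Rora (control range of 0.37 log2) and Bhlhe41 (2.53 CPM) fell short of the rule in liver. Rora, Hlf and Cry1 differed there by less than their standard errors. Without 1 control male at CT8 the medians in liver were -1.59 h over 241 genes and -1.33 h over the 16 clock genes. Per1 differed by -2.65 ± 0.88 h in liver and -1.42 ± 0.33 h in SCN. Nr1d1 differed by -0.98 ± 0.47 h in liver and -0.89 ± 0.29 h in SCN, although it peaked at CT6.86 in liver and CT3.08 in SCN on control.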

How the data were processed

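Polyadenylated RNA of 36 SCN samples was sequenced (Illumina Stranded mRNA kit, per the labels). The authors deposited whole-number counts per gene, made per the submitters' processing notes with Trimmomatic, HISAT2, StringTie and DESeq2 on GRCm39. For tool versions and for strand in counting, the sources used here give nothing. Counts per library summed to 23.3 M to 79.8 M. Replicates of a group differed by far more than counting noise (chi-square per degree of freedom at least 24.1). The 2 control males at CT8 carry no replicate number in the table and are called a and b.

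From the counts, log2 CPM was computed in R 4.3.3 with edgeR 4.0.16 (TMM scaling, prior count 2), and a 24 h cosine curve was fitted per diet with a term for sex. The range, the peak time and their standard errors (delta method) come from that fit. The jackknife error of a median comes from leaving out each library in turn. The genes of the rule were then chosen again, and those called on both diets and the clock genes were held fixed. It is rough for a median. Rhythm on each diet and its difference were tested with edgeR's quasi-likelihood F test, and peak time with limma 3.58.1 (trend), over all 15759 genes with Benjamini-Hochberg adjustment, 2-sided, at 0.05. The scripts were tested on simulated data. Alternatives were DESeq2 1.42.0, limma-voom, other scalings, prior counts, thresholds, each sex alone, and leaving out each library.

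The members and gene lists were chosen with earlier results of these data known. Named genes were the members of the clock and SCN lists, the 8 largest earlier and later differences among genes called on both diets, the 6 largest changes of range each way, 3 genes on each side of the range threshold, up to 4 members of every other list by mean range, the genes past a threshold, and the genes of printed promoters. Other list members and the 10 genes of smallest p were added after their values were seen. Some list members are not reported here.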

Additional observations from a re-analysis of the deposited data

Results flagged for a closer look

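The diets differed in the 24 h rhythm of 2 genes by edgeR's test of the difference itself. Tsc22d3 had an adjusted p of 0.0377, with a range of 0.99 log2 on control and 1.54 log2 on MCD and a peak 2.72 ± 0.82 h earlier on MCD. The call was lost without any 1 of 24 libraries, and in males alone the adjusted p was 0.55 by edgeR. Its levels peaked at CT12 on both diets, at 93.5 ± 15.3 CPM for control and 101 ± 8.48 CPM for MCD (mean ± SD, n = 3), and its means at CT8 were 53.2 ± 9.37 and 84.4 ± 7.88 CPM.

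Mat2a, which encodes the enzyme that makes S-adenosylmethionine in brain, had an adjusted p of 2.55e-07 by edgeR. It did not meet the rule of range, with 0.25 ± 0.08 log2 on control and 1.57 ± 0.17 log2 on MCD. At CT16 its 3 control libraries had 134, 118 and 144 CPM, below the 296, 271 and 320.2 CPM of the MCD libraries. At CT4 the order was the other way, with 170, 166 and 156 CPM in control libraries against 109, 113 and 136 CPM under MCD. The adjusted p lay between 7.71e-09 and 2.1e-06 when any 1 of the 36 libraries was left out. Its fitted peaks, at CT5.10 on control and CT17.54 on MCD, are of little use as a difference because the control rhythm was not called (adjusted p = 0.29 by edgeR). A transcript antisense to Mat2a (Particl) overlaps it, and the counting was not stated to use strand.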

How the results depend on the processing

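The median difference in peak time kept its sign in each alternative tried, for the genes that met the rule, chosen again in each setting, and, where these fixed sets were refitted, for the 774 called on both diets and for the 17 clock genes. When any 1 library was left out, these medians lay between -1.08 and -0.76 h, between -1.10 and -0.84 h, and between -0.97 and -0.77 h. In males alone the medians were -1.35 h for the 1348 genes that met the rule there and -1.17 h for the 17. In females alone the 2631 genes that met the rule had a median of -1.02 h, with 63.7% earlier against 62.2% of all genes in the full data. The median difference in range lay between -0.02 and 0.01 log2 without any 1 library and was 0.062 log2 in females alone. The number of genes that met the rule was 1272 to 1400 without any 1 library, 2631 in females alone, 2940 at a minimum of 1 CPM, 646 at 20 CPM, 493 at a range of 0.75 log2 and 281 at a range of 1 log2.

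The test of peak time called 0 genes with limma and 0 with limma-voom, and 6 in males alone (Fabp7, Nr1d2, Tmem44, Dusp4, Npas4 and Rasl11b). Leaving out 1 library gave 0 to 4 calls: Tsc22d3 without control CT0 2, Rasl11b without control CT0 3, Dnajb1, Per1, Npas4 and Rasl11b without control CT12 3, and Dnajb1 and Tmem44 without control CT20 3. The test of the rhythm difference called 2 genes, 8 with DESeq2, 1 in males alone and 1 to 5 without any 1 library. Of 5332 values of 124 named genes under 43 settings, 5242 stayed within 1 standard error and 90 moved by more, and 69 of the 124 genes moved by more in at least 1 setting. The causes were not tested. Depth could limit the genes at low level, which was not tested. Added terms of 12 h cannot move a 24 h peak or range fitted to evenly spaced times, so they test nothing there. With them the difference in library time was 1.08 h.

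The shared replicate numbers do not pair the samples: over 16 pairs the correlation of their deviations lay between -0.086 and 0.284, and 8 were over 0.1. The replicate number was used as a block on the 34 libraries that carry one, which leaves out both control males at CT8. With it 1248 genes were called rhythmic on control and 2466 on MCD, against 2378 and 2544 without it on all 36 libraries. The parts of the block and of the left-out libraries in this were not tested. The rhythm difference was called in 1 gene with the block, and peak time in 0. The medians with the block were -0.83 h for the 1349 genes that met the rule with it and -0.88 h for the 774. The adjusted p of Tsc22d3 was 0.624 by edgeR with the block.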
